A study of Mus musculus with 6 samples.

Results

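The posterior Hoxb and Hoxc genes examined here were Hoxb6, Hoxb7, Hoxb8, Hoxb9 and Hoxb13 on chromosome 11 and Hoxc9, Hoxc10, Hoxc11, Hoxc12 and Hoxc13 on chromosome 15. Their chromatin was followed through the ATAC-seq peaks whose midpoint lay within 50 kb of a transcription start site of 1 of these 10 genes in the GENCODE annotation of the mm10 genome. Of 61954 peaks in the table, 10 met this rule, 4 near the Hoxb genes and 6 near the Hoxc genes. The rule used position only and no measured value.

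ATAC-seq reads open chromatin through the places where the transposase Tn5 inserts sequencing adapters. The libraries came from distal forelimb buds at E11.5 in a mixed background C57Bl/6 x 129, each made from 50000 cells from 1 embryo with its left and right buds pooled and sequenced with 50 bp paired reads. Wild-type embryos gave 2 libraries, and HOX13-/- embryos (Hox13-/- below) gave another 2. In the mutants both Hoxa13 and Hoxd13 are inactivated through the alleles Hoxa13Str and Hoxd13lacZ. A further 2 libraries from proximal forelimb buds, titled WT but carrying the genotype label Control RosaHoxa11/Hoxa11, were not analysed here. The values are regularized log (rLog) values, a library-scaled read signal on a log2 scale that is shrunk towards the mean of each peak, so differences of weak peaks are understated. They hold no read counts, and the depth behind each peak is therefore unknown.

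Hox genes encode homeodomain transcription factors that give cells along the head-to-tail axis their regional identity, and those with the highest numbers, the posterior genes, act nearest to the tail. In the limb bud the Hoxa and Hoxd clusters carry most of the patterning function, and HOXA13 and HOXD13 act in the distal part that forms the digits. Genes of the Hoxb and Hoxc clusters pattern the trunk, Hoxc10 and Hoxc11 are known as hindlimb genes, and inactive Hox genes are typically covered by Polycomb-repressed chromatin. Neither the Hoxb nor the Hoxc cluster carries a mutated allele in these embryos.

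The peaks were numbered in chromosome order as b1 to b4 and c1 to c6. The sequences of 3 of them are given, read from the plus strand of the GRCm38 genome, which is mm10. Peak c1 is shown because it was the only member that passed the test between genotypes, peak c2 because it is its close neighbour and peak b2 because it holds the only ATAAA match on the Hoxb side. Capitals mark ATAAA, the last bases of the motif bound by posterior HOX proteins, or its reverse complement TTTAT. For c1 the central 300 bases are printed, chr15:102959812-102960111, and the other peaks are whole, chr15:102960360-102960474 for c2 and chr11:96260361-96260471 for b2.
c1: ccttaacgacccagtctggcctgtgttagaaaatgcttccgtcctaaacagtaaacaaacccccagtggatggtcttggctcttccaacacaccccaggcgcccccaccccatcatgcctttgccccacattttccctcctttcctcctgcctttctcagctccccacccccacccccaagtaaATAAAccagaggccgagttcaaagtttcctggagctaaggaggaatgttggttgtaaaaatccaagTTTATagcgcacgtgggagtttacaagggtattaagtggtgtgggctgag
c2: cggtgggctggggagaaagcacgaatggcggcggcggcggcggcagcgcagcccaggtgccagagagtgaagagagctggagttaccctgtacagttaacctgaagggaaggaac
b2: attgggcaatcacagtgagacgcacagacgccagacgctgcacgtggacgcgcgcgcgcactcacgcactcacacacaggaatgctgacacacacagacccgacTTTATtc

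Among the peaks analysed here, none lay at a start site of the 10 genes. A peak within 1 kb of a start site was found for 0 of 10 genes, against 13383 of 20807 protein-coding genes on the autosomes (64.3%). No peak lay over the body of any of these genes either. In the same clusters, 0 of 5 other Hoxb genes (Hoxb1 to Hoxb5) and 2 of 4 other Hoxc genes (Hoxc5 and Hoxc6, of Hoxc4, Hoxc5, Hoxc6 and Hoxc8) had such a peak. In the Hoxa and Hoxd clusters 11 of 11 and 9 of 9 genes had one. The windows around the 10 genes held 2.77 peaks per 100 kb, 1.95 on the Hoxb side and 3.85 on the Hoxc side, whereas those around the Hoxa and Hoxd genes held 25.7 and 23.1. The windows around the other Hoxb and Hoxc genes held 3.07 and 3.59, so few peaks are not particular to the posterior genes. These windows share 3 of 5 and 6 of 6 of their peaks with those of the posterior genes. These densities are descriptions of 1 peak set called across all 4 libraries, and no test was made of them.

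**Figure D1:**
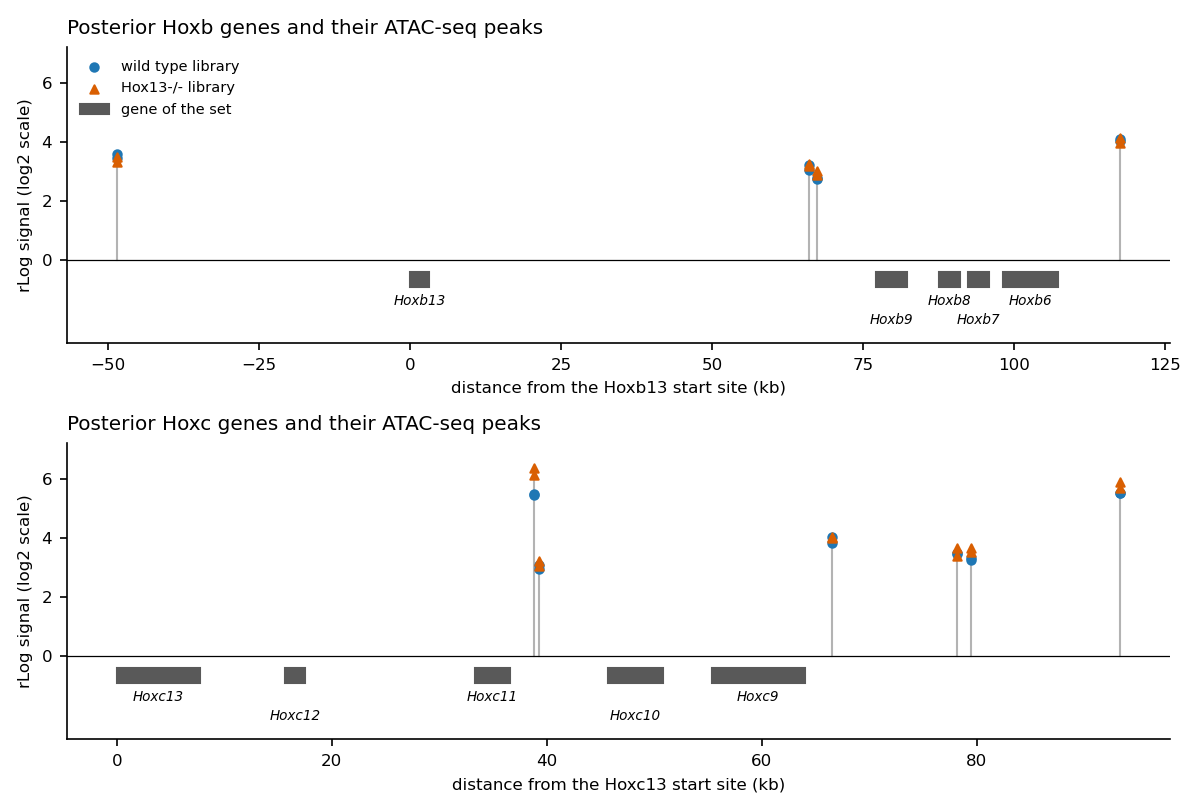
Genes (grey boxes) and peaks of the posterior Hoxb and Hoxc regions by distance in kb from the Hoxb13 or Hoxc13 start site, with the rLog signal (log2 scale) of each wild-type (circles) and Hox13-/- (triangles) library. All 10 peaks lie outside the 10 genes of the set, and the triangles stand clear above the circles at c1, between Hoxc11 and Hoxc10.

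The nearest peak to each gene gave the length of its surroundings without a peak. It was 5.53 kb downstream of the start of Hoxc11 and 6.38 kb upstream of that of Hoxc10. It was 9.83 kb upstream for Hoxb9, 10.6 kb downstream for Hoxc9 and 12.6 kb downstream for Hoxb6. For Hoxb8, Hoxb7 and Hoxc12 the nearest peak was 20.3, 23.0 and 23.2 kb away, for Hoxc13 38.9 kb and for Hoxb13 48.5 kb. Because of this spacing several genes share their nearest peak, so the genes do not give independent values. Peak c1 was nearest to Hoxc11, Hoxc12 and Hoxc13, b4 to Hoxb6 and Hoxb7, and b3 to Hoxb8 and Hoxb9, c2 to Hoxc10, c3 to Hoxc9 and b1 to Hoxb13.

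Across the 10 peaks, 1 was more accessible in Hox13-/- and 0 were less accessible at an adjusted p under 0.05. Of all peaks, 11.4% were called higher and 8.31% lower by the same limma test, 19.7% in either direction, so a count of 1 in 10 is near the background. Centring each library on its median turned the calls over all peaks from 7040 higher and 5146 lower into 6017 higher and 6811 lower. With a fold change above 2 as a further condition 0 of the 10 passed in either direction, against 0.313% of all peaks higher, 0.224% lower and 0.537% in all. At an unadjusted p under 0.05, limma gave 3 of the 10 higher and 0 lower, against 16.9% and 14.9% of all peaks. With 2 libraries per genotype the p-values, SEs and intervals rest wholly on a spread shared between peaks of like signal. They reflect how these 4 embryos differ over such peaks, and the spread at the peak itself does not enter them.

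The peak that passed the test, c1, lay at chr15:102959674-102960249, between genes, 1965 bp past the end of Hoxc11 and 6546 bp before Hoxc10. Its rLog signal was 5.49 and 5.43 in the wild-type pair against 6.36 and 6.13 in the mutant pair. Both mutant libraries were above both wild-type libraries, and the difference was larger than the spread within either genotype. The mean rose from 5.46 ± 0.044 to 6.24 ± 0.16 (SD, n = 2 each), a log2 difference of 0.78 (SE 0.13, 95% interval 0.53 to 1.04, limma adjusted p = 8.9e-08), which is a fold of 1.72 on this shrunken scale. This difference was larger in size than that of 98.3% of all peaks. The peak caller had found c1 in each mutant library and in no wild-type library. Peak c1 thus entered the table through the genotype in which it was higher, so its rank and p-value are descriptions and support no direction. Of 6937 peaks with that pattern of calls, 49.4% were called higher, and their median difference was 0.33. A rise as such is therefore not particular to c1. How the size of its rise ranks among those peaks is not given here.

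Peak c2, of 115 bp, began just downstream of c1 and was called as a peak in 1 Hox13-/- library. Its rLog signal was 2.93 and 3.07 in the wild-type pair against 3.05 and 3.21 in the mutant pair. The genotypes overlapped, and the difference of 0.13 (SE 0.114) did not pass the test (limma adjusted p = 0.45). The difference between c1 and c2 was not tested.

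**Figure D2:**
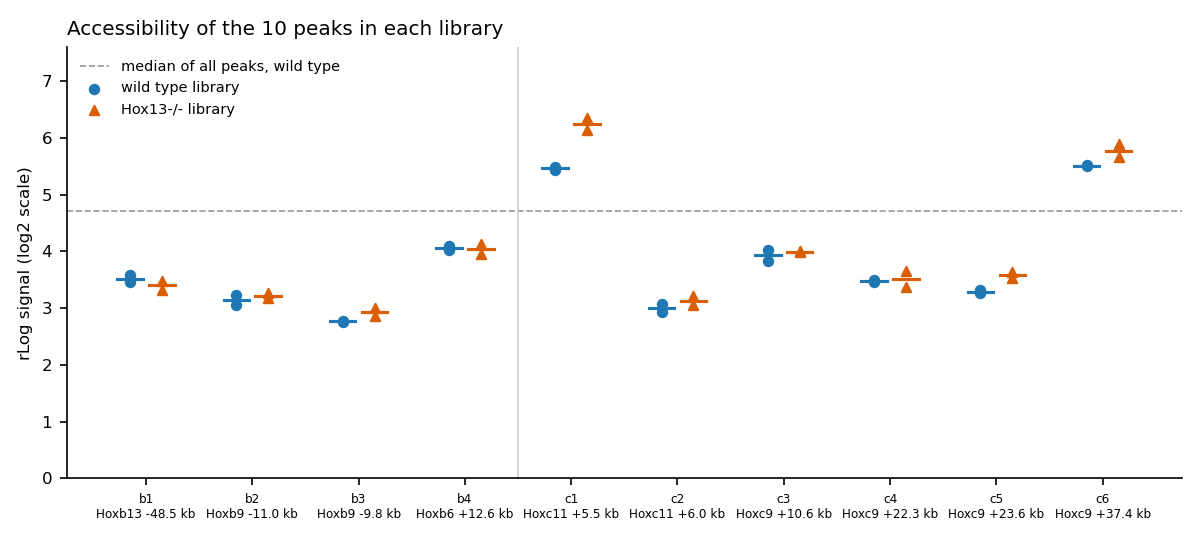
rLog signal (log2 scale) of the 10 peaks in each wild-type (circles) and Hox13-/- (triangles) library, with the mean of each genotype as a short line and the wild-type median of all peaks dashed. Each peak is labelled with its nearest gene of the set and the distance from its start; only c1 and c6 lie above the dashed line.

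The remaining Hoxc peaks lay on the side of Hoxc9 that faces the anterior genes of the cluster. Peak c5 (chr15:103000538-103000667) overlapped an exon of Hoxc6, with its midpoint 73.5 bp from a Hoxc6 start site. Its signal was 3.26 and 3.31 in the wild-type pair against 3.53 and 3.64 in the mutant pair. The mutant libraries were both higher, and the difference of 0.30 (SE 0.12) had an adjusted p of 0.059 by limma. Peak c6 (chr15:103014183-103014603) overlapped an exon of Hoxc5, and ended 306 bp before the microRNA gene Mir615. Its signal was 5.51 and 5.50 in the wild-type pair against 5.66 and 5.89 in the mutant pair. Here too the mutant libraries were both higher, with a difference of 0.27 (SE 0.13, limma adjusted p = 0.14), which was 0.15 without Hox13-/- replicate 2.

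Peaks c3 and c4 showed no separation of the genotypes. Peak c3, 2442 bp past the end of Hoxc9 and 2942 bp before Hoxc8, had signals of 4.03 and 3.83 in the wild-type pair against 3.98 and 4.01 in the mutant pair. Peak c4, 1.03 kb from a Hoxc6 start site, had signals of 3.46 and 3.49 in the wild-type pair against 3.37 and 3.65 in the mutant pair. The differences were 0.07 (SE 0.127) and 0.03 (SE 0.121), with limma adjusted p of 0.75 and 0.88. Their 95% intervals ran from -0.18 to 0.32 and from -0.20 to 0.27.

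None of the 4 Hoxb peaks passed the test, and their differences lay between -0.12 and 0.17. Peak b1 (chr11:96145777-96145870) lay in an intron of Ttll6, 48.5 kb upstream of Hoxb13, and had signals of 3.46 and 3.58 in the wild-type pair against 3.48 and 3.32 in the mutant pair. Peak b2 lay inside the gene Gm53, upstream of Hoxb9, with signals of 3.05 and 3.23 in the wild-type pair against 3.17 and 3.26 in the mutant pair. The libraries of the genotypes overlapped at both peaks. The limma adjusted p was 0.51 at b1 and 0.68 at b2.

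Peak b3 (chr11:96261541-96261706), over an exon of Gm53, was the weakest of the 10 peaks. Its signal was 2.78 and 2.75 in the wild-type pair against 2.87 and 3.01 in the mutant pair. The mutant libraries were both higher, but by 0.17 (SE 0.11), with a limma adjusted p of 0.27. Peak b4 had signals of 4.03 and 4.09 in the wild-type pair against 4.14 and 3.95 in the mutant pair. By rLog, not corrected for peak length, b4 was the strongest Hoxb peak in wild type. Its genotypes overlapped, with a difference of -0.02 (SE 0.128, 95% interval -0.27 to 0.23, limma adjusted p = 0.93).

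**Figure D3:**
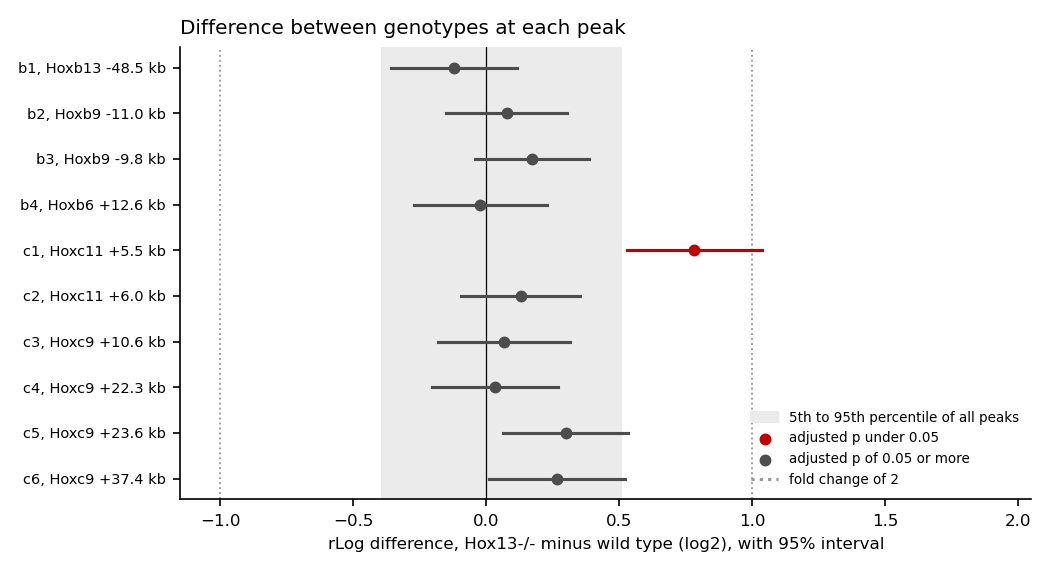
Difference in rLog signal (log2) between Hox13-/- and wild type at each of the 10 peaks, with its 95% interval; the grey band spans the 5th to 95th percentile of all peaks and the dotted lines mark a fold change of 2. Only the interval of c1, from 0.53 to 1.04, lies outside the band, and it is the only point with an adjusted p under 0.05.

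Of the 10 peaks, 6 (b2, b3, c1, c2, c4 and c5) had been called in Hox13-/- libraries only, against 32.2% of all peaks, and 1 (b1) in wild type only, against 16.6%. Among these 6, all but c1 had been called in Hox13-/- replicate 2 alone. Peaks called in 1 genotype only entered the table through that genotype. The counts and medians that follow are therefore descriptions and support no direction. The difference was above 0 in 8 of 10 peaks, in 6 of 6 near the Hoxc genes and in 2 of 4 near the Hoxb genes, against 49.2% of all peaks. With each library centred on its median, 1 of the 6 Hoxc peaks, c4, was below 0 at -0.0024. The genotypes did not overlap at 4 of 10 peaks (b3, c1, c5 and c6), each with Hox13-/- above and 3 of them (b3, c1 and c5) called in Hox13-/- only, against 29.7% of all peaks with Hox13-/- above and 29.6% with wild type above, 59.2% in all. The median difference was 0.20 for the Hoxc peaks, 0.03 for the Hoxb peaks and -0.005 over all peaks. The Hoxb median turned to -0.0068 with median centring, and the Hoxc median was 0.10 without Hox13-/- replicate 2. Peaks are not replicates, and no test was made of these medians or of the gap between the clusters. The 1 peak just outside the window, at -53.3 kb from the Hoxb13 start, had signals of 3.27 and 3.16 in the wild-type pair against 3.43 and 3.28 in the mutant pair.

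In wild type the peaks of the 2 clusters were compared per length, as rLog minus log2 of the length in kb. The median level of the Hoxb peaks was 6.55 and 6.68 in the 2 wild-type libraries, and that of the Hoxc peaks was 6.30 and 6.29. The Hoxc peaks were thus lower by 0.25 and 0.38 per kb in wild type. In Hox13-/- their median was 0.08 and 0.17 above that of the Hoxb peaks. Of the 6 Hoxc peaks, 4 had been called in Hox13-/- libraries only. Of the 4 Hoxb peaks, 2 had been called in Hox13-/- only and 1 in wild type only. This change of order between the genotypes is therefore a description and supports no direction. Without the correction for length the Hoxc median was above the Hoxb median in all 4 libraries, by 0.49 and 0.25 in the wild-type pair and by 0.43 and 0.53 in the mutant pair. The order of the clusters in wild type therefore depends on the correction. The gap also depends on the window: the medians over the mean of the wild-type libraries were 6.62 for Hoxb and 6.29 for Hoxc, but 6.31 and 6.26 with windows of 25 kb and 6.31 and 6.29 with 100 kb. Both lay below the wild-type median of all peaks, 6.75 per kb. Without peaks within 1 kb of any start site the Hoxb median was 6.92 (3 peaks) and the Hoxc median was 6.29 (4 peaks). The median of all peaks under the same filter is not given here. That of all peaks within 1 kb of a start site was 7.15, so 6.92 and 6.75 come from unlike sets.

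**Figure D4:**
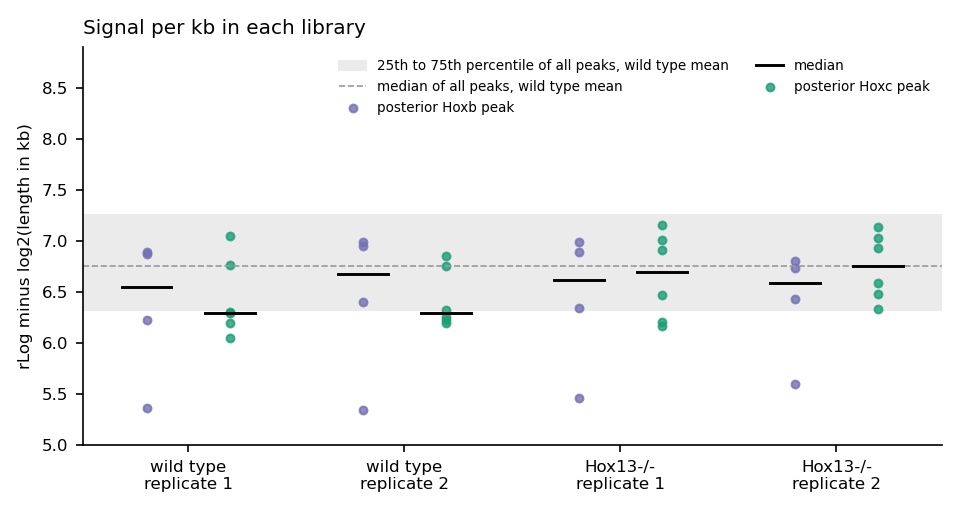
rLog minus log2 of peak length in kb for the Hoxb (purple) and Hoxc (green) peaks in each library, with the median as a line; the grey band spans the 25th to 75th percentile of all peaks in wild type and the dashed line their median. The Hoxb line is above the Hoxc line in both wild-type libraries and below it in both Hox13-/- libraries. Of the 10 peaks, 6 were called in Hox13-/- libraries only, so this change of order supports no direction.

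Features that the rule did not use were compared with those of all peaks. The median length was 134 bp against 250 bp for all peaks, with c1 (576 bp) and c6 (421 bp) longer than that, and 8 of the 10 had a wild-type signal under the median of all peaks. The median GC content was 61.5% against 52.1%. The median ratio of observed to expected CpG was 0.56 against 0.34, with c1 at 0.31, and it was 0.57 around the Hoxa genes and 0.61 around the Hoxd genes. Of the 10, 0 were called in all 4 libraries, against 31.8% of all peaks, and 6 were called in 1 library, against 34.6%. For 5 of these 6 that library was Hox13-/- replicate 2, and for b1 it was wild-type replicate 2. The paper lists more called peaks for Hox13-/- replicate 2 than for any other distal library. The share of all peaks called in that library alone is not given here, so this count is a description.

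Motif letters were searched on both strands. CAATAAA, the core of the posterior HOX motif, was in 0 of 10 peaks and in 6.43% of all peaks. The core of the motif of the insulator protein CTCF was in 0 of 10 and in 13.9%. The shorter ATAAA, which lies inside CAATAAA, was in 3 of 10 peaks and in 41.3% of all peaks. In the sequences above, the printed stretch of c1 holds 2 matches, and c1 as a whole holds 3. The median of all peaks is longer than that of these 10, and a match or its lack is a description of these letters only.

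The Hoxa and Hoxd clusters, which hold the mutated genes, served as the comparison. The mutated genes had peaks at their own start sites. The 1 start-site peak of Hoxa13 had signals of 5.71 and 5.95 in the wild-type pair against 5.66 and 5.84 in the mutant pair, and these overlapped. Of the 3 start-site peaks of Hoxd13, the one nearest to its start had signals of 4.06 and 4.17 in the wild-type pair against 3.70 and 3.495 in the mutant pair, a fall by 0.52 (SE 0.126, limma adjusted p = 6.1e-04). The other 2 did not pass, with differences of -0.26 and 0.22 (limma adjusted p = 0.14 and 0.21). The difference between the Hoxa13 and Hoxd13 peaks was not tested. A null allele need not remove an ATAC-seq peak, so these values do not check the genotype labels. Of 52 peaks around the Hoxa genes 8 were higher (15.38%) and 6 lower (11.54%). Around the Hoxd genes 9 of 45 were higher (20%) and 4 lower (8.89%). The shares of all peaks were 11.4% higher and 8.31% lower. The difference between the Hoxa and Hoxd clusters and the posterior Hoxb and Hoxc genes was not tested. Around the other Hoxb genes, a peak 47483.5 bp downstream of the Hoxb1 start rose by 0.47 (SE 0.131, limma adjusted p = 0.0032), from 4.89 and 4.61 to 5.37 and 5.08.

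**Figure D5:**
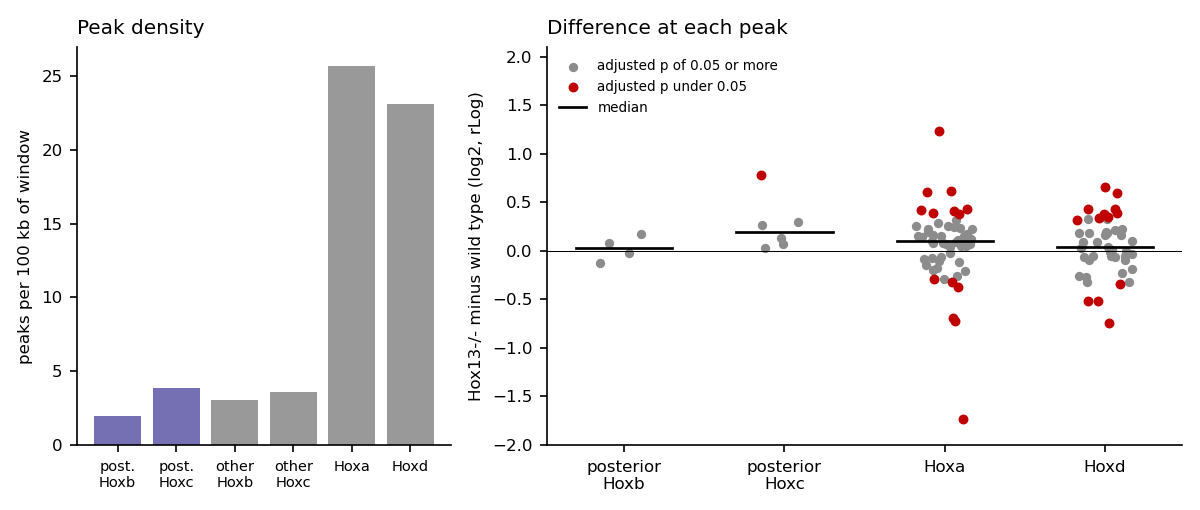
Left, peaks per 100 kb of the windows within 50 kb of a start site for the posterior and other Hoxb and Hoxc genes and for the Hoxa and Hoxd genes; right, the difference (log2, rLog) between Hox13-/- and wild type at each peak, red where the adjusted p was under 0.05, with the median as a line. The posterior windows hold 1.95 and 3.85 peaks per 100 kb, the other Hoxb and Hoxc windows 3.07 and 3.59, and the Hoxa and Hoxd windows 25.7 and 23.1.

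Start-site peaks of marker genes were used to check the tissue. All 7 limb mesenchyme genes had one, and 1 of the 2 peaks of Twist1 fell by 0.40 in Hox13-/- (limma adjusted p = 0.014). Tbx5, the forelimb T-box gene, also had a start-site peak, whose difference of 0.11 did not pass the test (limma adjusted p = 0.57). Of the hindlimb genes, Pitx1 had none and Tbx4 had 2, which fell by 0.40 and 0.71 in Hox13-/- (limma adjusted p = 0.014 and 8.0e-07), while the 2 peaks of Isl1 did not pass the test. Markers of ectoderm had peaks at 2 of 6 genes, muscle precursors at 1 of 5, endothelium at 2 of 4, nerve and neural crest at 1 of 4 and blood at 0 of 5, and none of these peaks passed. The part of cell composition in the c1 result was not tested, and in bulk tissue a change in the number of cells of a type and a change in open chromatin per cell cannot be told apart.

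Genes of Polycomb complexes, which keep inactive Hox clusters repressed, and of HOX partners were followed by their start-site peaks. The Polycomb list held 16 genes, of which 14 encode Polycomb proteins and 2, Kdm6a and Kdm6b, encode demethylases that remove the Polycomb mark. Each of the 14 had a start-site peak and the 2 demethylase genes had none here, with Kdm6a on the X chromosome, outside the 19 autosomes of the table. Of the 29 peaks 0 were higher and 5 were lower, the single peaks of Suz12 (-0.43), Cbx2 (-0.39) and Cbx8 (-0.43), 1 of 2 at Phc2 (-0.51) and 1 of 6 at Jarid2 (-0.46). The second Phc2 peak had a difference of -0.20 and the other Jarid2 peaks lay between -0.15 and 0.25, which did not pass. Of 19 peaks at 9 of 9 HOX partner genes 2 were higher, both among the 4 peaks of Pbx3 (0.52 and 0.35), and 3 were lower, all among the 5 peaks of Pknox1 (-0.48, -0.44 and -0.36). The other 2 peaks of Pbx3 had differences of -0.30 and -0.07 and those of Pknox1 0.20 and 0.03, which did not pass. Peaks within 1 kb of a start site were in general called lower more often than higher, 8.31% against 2.38% of 21419, with a median difference of -0.10.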

How the data were processed

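According to the paper and the submitters' processing notes, the authors aligned reads to mm10 with Bowtie2 2.3.1, called peaks in each library with MACS2 2.1.1.20160309, merged them with HOMER 4.9.1 and computed rLog values, on a log2 scale, with DESeq2. How duplicate reads and the Tn5 offset were handled is not given in the sources used here. The deposited log2 fold change, p-value and adjusted p-value columns hold the authors' own comparison and were not used. The deposited names of the per-library peak files gave the libraries in which a peak was called.

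The whole table of 61954 peaks was fitted in R 4.3.3 by limma 3.58.1, with genotype as the only term, a variance trend, two-sided tests and Benjamini-Hochberg adjustment. The procedure was tested on simulated data. Gene positions came from GENCODE M21 and sequence from GRCm38, read with pysam 0.24.0. Coordinates count from 1. Python 3.11.15, pandas 2.3.3, numpy 2.4.6 and matplotlib 3.10.9 were used. Every member peak was described, and by rule the start-site or else nearest peak of each gene, the called peaks and the 3 peaks per cluster with the highest wild-type signal per kb were to be named. The members and lists were chosen with earlier results of these data known, and the ATAAA search was added after seeing the data. Other scalings, filters, thresholds, windows, start sites, a replicate block and leaving out each library were the alternatives. The sequence of 1 peak is not reported here. No label permutation of these libraries can give a p under 0.333.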

Additional observations from a re-analysis of the deposited data

How the results depend on the processing

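The count of 1 peak higher and 0 lower held under every alternative run, except that with a fold change above 2 the count higher was 0. The difference at c1, a peak called in Hox13-/- libraries only, ran from 0.67 to 0.89. Of 90 combinations of peak and setting, 84 kept direction and side of the threshold. The 6 that reversed were small differences, and the cause was not tested: c4 was -0.0024 with median centring, and leaving out 1 library at a time gave -0.11 to 0.17 at c4, -0.0123 to 0.17 at b2, -0.12 to 0.0739 at b4 and -0.0337 to 0.17 at c3. The same gave -0.20 to -0.04 at b1, 0.10 to 0.24 at b3, 0.05 to 0.21 at c2, 0.24 to 0.36 at c5 and 0.15 to 0.38 at c6, with no change of direction. The Hoxb median difference was -0.0218 in the upper 75% of peaks by signal, which leaves 1 Hoxb peak, 0.0770 with windows of 25 kb or 100 kb, and -0.0324 to 0.0855 with 1 library left out. The Hoxc median was 0.52 in the upper 50% of peaks, which holds 2 Hoxc and no Hoxb peaks. It was 0.13 with windows of 25 kb, 0.20 with 100 kb, and 0.10 to 0.28 with 1 library left out. In these fits the lone library is assumed to vary like the others. The wild-type level per kb of the Hoxb peaks was 6.31 with 25 kb or 100 kb windows and 6.92 without peaks within 1 kb of any start site, and as rLog without length it was 3.33. That of the Hoxc peaks was 6.26 with 25 kb windows, 6.29 to 6.30 with 1 wild-type library left out, and 3.70 without length. Same-numbered libraries did not deviate together (r = -0.0106 over 61954 peaks, across peaks). This value cannot decide whether the numbers pair the samples. A shared effect that was equal at all peaks, or limited to few of them, would hardly change it. With the replicate block 1 member peak was higher and 0 lower, and 7013 peaks were higher and 4967 lower over all. Depth per peak is unknown, so no counting interval could be given.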
